A study of Danio rerio with 6 samples.

Results

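The translation initiation factors (eIF) and elongation factors (eEF) were followed in regenerating larval zebrafish tail fins under rapamycin, a drug that blocks mTOR complex 1. They were taken as every row of the gene count table whose zebrafish symbol, ignoring case, begins with eif and a digit or with eef1 or eef2, and the eIF4E-binding proteins (eif4ebp genes) were left out. This gave 79 of 32057 genes, of which 61 were initiation factors or the kinases named after them and 18 were elongation factors and enzymes that modify them. The rapamycin group held 3 libraries (replicates 4 to 6) from larvae treated with 1 µM rapamycin from 2 dpf, and its labels give mTOR inhibition in place of a genotype. The control group held 3 libraries (replicates 1 to 3) from WT larvae that received the solvent DMSO. In both groups amputation took place at 3 dpf, 50 regenerated fins were pooled per library at 24 hpa, and whole-number counts per gene were obtained by SMART-seq, a method that amplifies cDNA from small amounts of RNA. The drug was given to the whole larva, before and after the cut, so effects within the fin and from outside it are not separated.

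Translation starts when the small ribosomal subunit, held by eIF1, eIF1A, eIF3 and eIF5, takes up the initiator tRNA with eIF2 and joins an mRNA whose cap is bound by eIF4F, the assembly of the cap-binding eIF4E, the scaffold eIF4G and the helicase eIF4A. eEF1A then delivers each aminoacyl-tRNA and is recharged with GTP by the eEF1B complex, while eEF2 moves the ribosome along the mRNA. mTOR complex 1 acts on this machinery through the eIF4E-binding proteins, the S6 kinases and the eEF2 kinase. In mammals the mRNAs of eEF1A, eEF2, the eEF1B subunits, several eIF3 subunits and the poly(A)-binding protein begin with a tract of pyrimidines and depend on mTOR complex 1 for their translation. The counts reported here measure mRNA and give no information on translation or protein.

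Most translation factors did not pass the test between rapamycin and control fins, and those that did were split between the directions. Of the 79 genes, 74 passed the low-count filter, and the edgeR quasi-likelihood test called 3 higher and 3 lower in the rapamycin fins at a Benjamini-Hochberg adjusted p under 0.05. This is 4.05% in each direction, beside 1.97% of all 19778 tested genes called higher and 3.27% called lower. The higher genes were EIF3CL, EEF1D and EIF3B (ENSDARG00000059654), and the lower genes were EEF1A1 (ENSDARG00000069951), eef1e1 and eif2b1. Fold changes on the log2 scale were above 0 in 34 members and below 0 in 40, and their median was -0.08 beside 0.00 over all tested genes. No overlap between the groups was seen in 13 members that lay above the controls (17.6%) and 11 that lay below them (14.9%), beside 14.8% and 15.9% of all tested genes. By overlap the members thus stood close to the background, and the 6 calls are too few to set them apart from it. With single libraries left out, the adjusted p from edgeR reached 0.143 to 0.212 for each of the 6 genes.

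**Figure D1:**
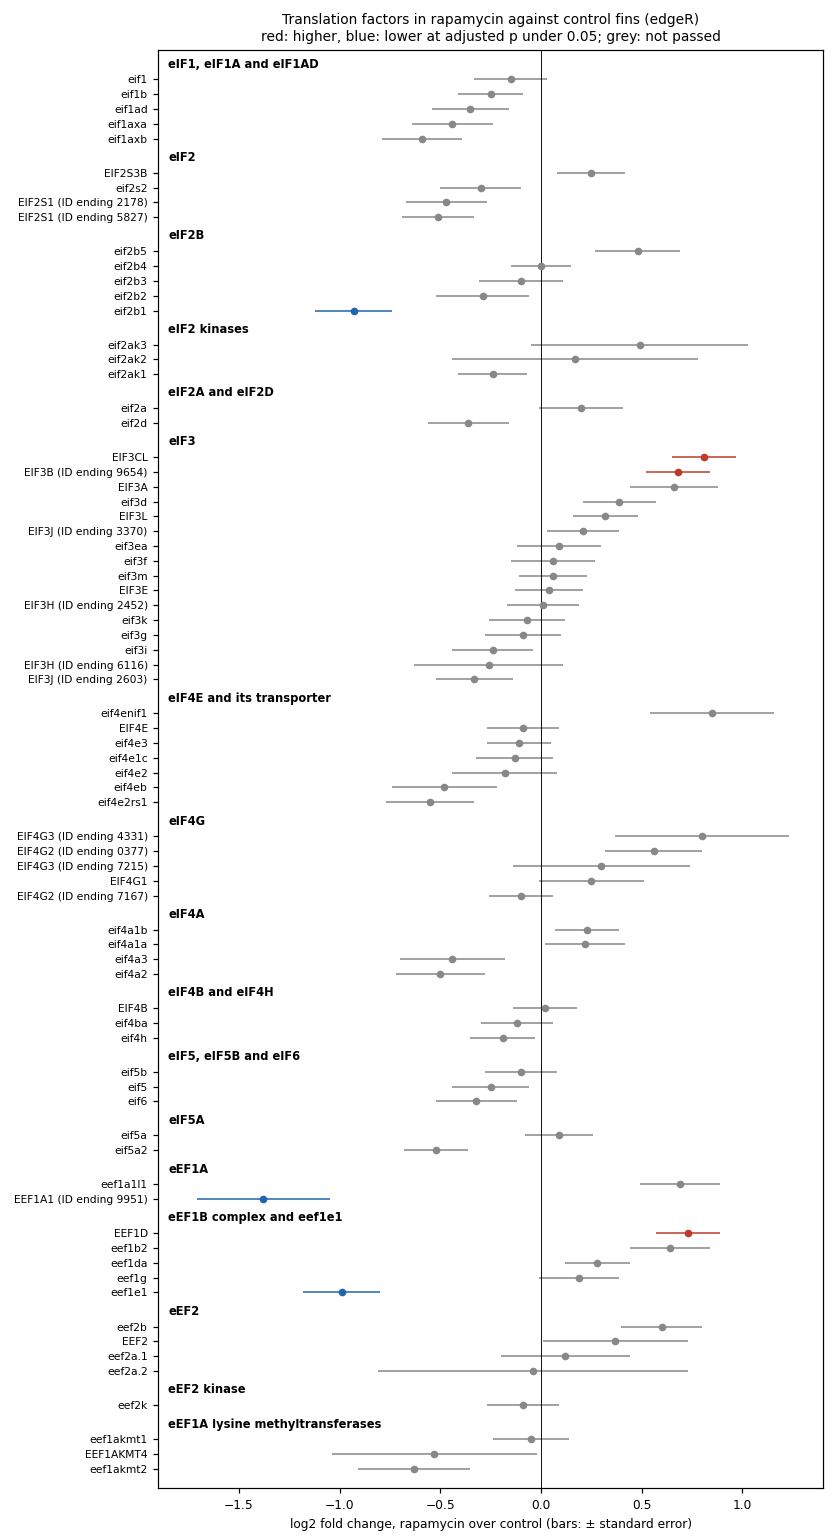
Log2 fold change of each of the 74 tested translation factors, rapamycin over control, on the horizontal axis, with bars of 1 standard error, grouped by factor complex down the page. The 3 red points are genes called higher and the 3 blue points genes called lower by edgeR; the members of eIF1, eIF1A, eIF5, eIF5B and eIF6 all lie left of 0.

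The 3 rapamycin libraries lay close together in these genes and the control libraries lay further apart, as in the table as a whole. Total counts were 49055607 to 54162044 per library, and on the first principal component of all genes the rapamycin libraries stood at 59.1 to 60 while the controls stood at -8.84 (replicate 1), -77.4 and -92.4. The SD of log2 CPM (a gene's count relative to the scaled total of its library) was smaller among the rapamycin than among the control libraries in 69 of 74 members (93.2%), beside 76.2% of all tested genes. Its medians over the members were 0.10 in rapamycin and 0.27 in control fins, beside 0.18 and 0.36 over all tested genes. Control replicate 1 was the control nearest to the rapamycin mean in 36 members (48.6%, beside 51.1% of all tested genes). Without that library, edgeR called 14 members higher and 21 lower (18.9% and 28.4%, beside 15.5% and 15.6% of all tested genes), and without any 1 of the other 5 libraries it called 0 higher and 0 or 1 lower, where 0.23% to 1.62% of all tested genes were called higher and 0.318% to 2.32% lower. With all libraries kept, edgeR called 1.97% of all tested genes higher and 3.27% lower, and the calls of markers stand beside these shares. Erythrocyte markers were lower in rapamycin fins, with a summed level of 34.4 to 56.6 CPM against 125 to 156 CPM in control fins and 3 of 4 genes called. Fin epidermis markers summed to 56319 to 69231 CPM in rapamycin and 45666 to 57675 CPM in control fins, with 2 of 9 genes called higher, and fin fold mesenchyme markers summed to 104504 to 113158 CPM in rapamycin and 88578 to 152615 CPM in control fins, with 1 of 10 called higher, so the labelled tissue was seen in every library. Macrophage markers summed to 215 to 308 CPM in rapamycin and 250 to 457 CPM in control fins, with c1qa and c1qb, 2 of 12, called lower. At an unadjusted edgeR p under 0.05, 6 of the 12 were lower, beside 13.3% of all tested genes. At that threshold 1 was higher, csf1ra (log2 fold change 0.76, not called), beside 10.1% of all tested genes. DESeq2 called 3 of the list lower, beside 7.17% of all genes it tested, and 1 ID named MFAP4 had 0 counts in every library. Neutrophil markers summed to 380 to 525 CPM in rapamycin and 187 to 290 CPM in control fins, mostly mmp9 (369 CPM in rapamycin and 210 CPM in control fins on average), with mmp13a, 1 of 4, called higher and lyz and npsn at -0.44 and -0.13. Pigment cell markers summed to 81.4 to 127 CPM in rapamycin and 140 to 209 CPM in control fins, with gch2, 1 of 4, called lower and dct and pmela at 0.40 and 0.44. Of the 7 tested muscle, 3 neuron, 2 notochord and 3 endothelium genes edgeR called 0. At an unadjusted p under 0.05 there were 4 muscle genes and 1 endothelium gene, all lower, beside 13.3% of all tested genes. DESeq2 called 1 endothelium gene lower, beside 7.17% of all genes it tested. The part of cell composition in the results was not tested, and in bulk fins fewer cells of a type cannot be told apart from less RNA per cell.

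Levels below are CPM after TMM scaling, given by rising replicate number within each group, and fold changes are rapamycin over control. They were not scaled by gene length, so levels of different genes are not compared. EIF3CL was the only member named for the c subunit of eIF3, a core subunit that contacts eIF1 and eIF5. It had 94.0, 103 and 101 CPM in rapamycin fins, against 62.6, 57.9 and 50 CPM in control fins. Every rapamycin library lay above every control library. The means were 99.6 ± 4.94 CPM in rapamycin and 56.8 ± 6.35 CPM in control fins (SD, n = 3 each), a log2 fold change of 0.81 with a standard error of 0.16 (edgeR adjusted p = 0.0254).

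EIF3B (ENSDARG00000059654), the subunit that scaffolds the mobile arm of eIF3, had 497, 457 and 473 CPM in rapamycin fins, against 278, 326 and 287 CPM in control fins. The groups were again apart, with means of 476 ± 20.1 CPM in rapamycin and 297 ± 25.1 CPM in control fins (SD, n = 3 each), and the log2 fold change was 0.68 with a standard error of 0.16 (edgeR adjusted p = 0.0457). This call was lost with DESeq2's size factors in the same edgeR test. EIF3A, the largest scaffold subunit, had 165, 175 and 207 CPM in rapamycin fins, against 145, 116 and 85.1 CPM in control fins. Its groups did not overlap, but the control libraries spread widely, and its log2 fold change of 0.66 (standard error 0.22) had an edgeR adjusted p of 0.110 and a DESeq2 adjusted p of 0.0476. The a, b and c subunits belong to the core of eIF3 that yeast and mammals share, and so do the g and i subunits. eif3g and eif3i stood at -0.09 and -0.24, and their groups overlapped.

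The other eIF3 subunits did not pass. Of 17 eIF3 genes, 16 were tested, 2 were called higher, beside 1.97% of all tested genes, and 14 did not pass. The median log2 fold change of the complex was 0.06. eif3d, which can bind the cap of some mRNAs in human cells, had 190, 174 and 206 CPM in rapamycin fins, against 121, 166 and 146 CPM in control fins (0.39, edgeR adjusted p = 0.223). EIF3L had a log2 fold change of 0.32 (edgeR adjusted p = 0.259), and both lay above all controls without passing the test. At the other end, EIF3J (ENSDARG00000012603), a loosely bound subunit, had 45.0, 44.5 and 41.7 CPM in rapamycin fins, against 42.8, 61.3 and 60.8 CPM in control fins (-0.33, edgeR adjusted p = 0.326). Its namesake ENSDARG00000053370 stood at 0.21, and the overlap of the groups in both leaves neither direction called. eif3ea, eif3f, eif3m, EIF3E, both EIF3H IDs, eif3k, eif3g and eif3i lay between -0.26 and 0.09. EIF3B under the ID ENSDARG00000074213 was not tested, with 0 counts in all rapamycin libraries, against 0, 0 and 8 counts in control fins. Summed over the 17 genes, eIF3 came to 2044, 2019 and 2132 CPM in rapamycin fins, against 1479, 1942 and 1693 CPM in control fins, 1.21 times higher on average. Without EIF3A, EIF3B and EIF3CL the sum was 1308 ± 37.1 CPM in rapamycin and 1235 ± 226 CPM in control fins (SD, n = 3 each) and the groups overlapped.

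**Figure D2:**
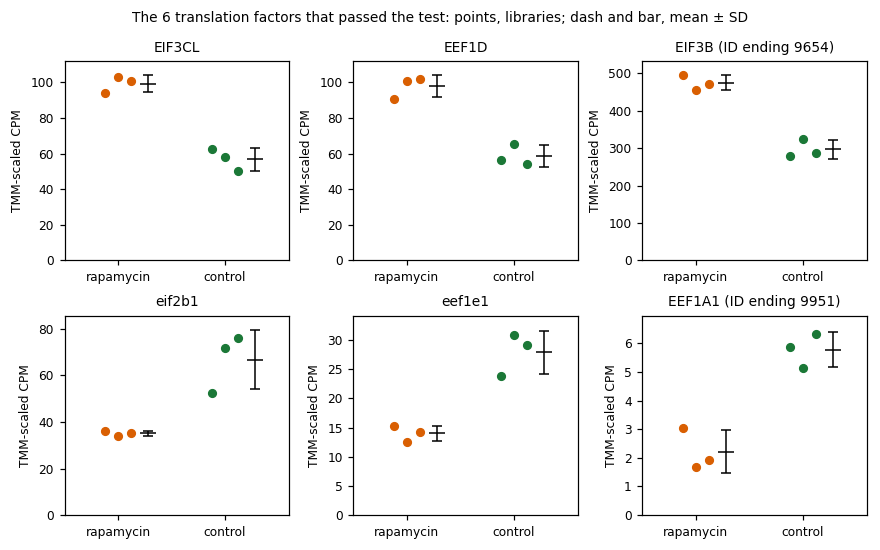
TMM-scaled CPM of the 6 translation factors that passed the edgeR test, each library as a point, with the mean ± SD (n = 3) beside the points, rapamycin left and control right. In each panel the groups do not overlap, as for EIF3CL with 94.0 to 103 CPM in rapamycin and 50 to 62.6 CPM in control fins.

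Among the 4 genes of the eEF1B exchange complex (EEF1D, eef1da, eef1b2 and eef1g), all log2 fold changes lay above 0 and edgeR called EEF1D alone. Over all tested genes, 9902 of 19778 lay above 0 and edgeR called 1.97% higher. EEF1D, the delta subunit that exchanges GDP for GTP on eEF1A, had 90.6, 101 and 102 CPM in rapamycin fins, against 56.5, 65.6 and 53.9 CPM in control fins. The groups did not overlap and averaged 97.7 ± 6.11 CPM in rapamycin and 58.7 ± 6.13 CPM in control fins (SD, n = 3 each), a log2 fold change of 0.73 with a standard error of 0.16 (edgeR adjusted p = 0.0339). eef1da, the other delta gene, was also higher in each rapamycin library than in any control, with 265 ± 21.2 CPM in rapamycin and 219 ± 18.3 CPM in control fins (SD, n = 3 each), but had a log2 fold change of 0.28 and did not pass (edgeR adjusted p = 0.340). Reads shared by the delta copies cannot be told apart here.

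eef1b2, the second exchange subunit, had 474, 543 and 553 CPM in rapamycin fins, against 389, 365 and 256 CPM in control fins. It was apart from the controls by 0.64 on the log2 scale (standard error 0.20). The adjusted p was 0.0984 with edgeR, over the threshold, and 0.0330 with DESeq2, under it. eef1g, the gamma subunit that holds the complex together, had 319, 354 and 382 CPM in rapamycin fins, against 251, 385 and 290 CPM in control fins, and overlapped (0.19, edgeR adjusted p = 0.604).

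eef1e1, whose product sits in the multi-aminoacyl-tRNA synthetase complex rather than in eEF1B and is also known as AIMP3 in mammals, had 15.2, 12.6 and 14.3 CPM in rapamycin fins, against 23.8, 30.9 and 29.1 CPM in control fins. It stood at 14 ± 1.33 CPM in rapamycin and 28 ± 3.69 CPM in control fins (SD, n = 3 each), with no overlap and a log2 fold change of -0.99 (standard error 0.19, edgeR adjusted p = 0.0238). It had the smallest adjusted p of the 74 members and was the single member called without control replicate 3.

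Among the eEF1A and eEF2 genes, eef1a1l1 and eef2b lay above every control without passing edgeR. eef1a1l1, which took nearly all eEF1A counts, had 3483, 3480 and 3763 CPM in rapamycin fins, against 1910, 2696 and 2034 CPM in control fins. It took 0.349% to 0.368% of all counts in the rapamycin libraries and 0.183% to 0.266% in the control libraries. The groups did not overlap, and the log2 fold change of 0.69 (standard error 0.20) had an adjusted p of 0.0731 with edgeR and 0.00994 with DESeq2. eef2b, which took nearly all eEF2 counts, had 1295, 1161 and 1248 CPM in rapamycin fins, against 637, 997 and 809 CPM in control fins. It was likewise apart, and its log2 fold change of 0.60 (standard error 0.20) had an adjusted p of 0.116 with edgeR and 0.0491 with DESeq2.

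The eEF1A gene that fell had few counts. EEF1A1 (ENSDARG00000069951) had 3.06, 1.68 and 1.92 CPM in rapamycin fins, against 5.89, 5.13 and 6.34 CPM in control fins, with means of 2.22 ± 0.740 CPM in rapamycin and 5.79 ± 0.610 CPM in control fins (SD, n = 3 each). The groups were apart, and the log2 fold change of -1.38 (standard error 0.33, edgeR adjusted p = 0.0429) was the lowest of all members and the one call with an absolute size of 1 or more. Of all tested genes, 4.10% passed both thresholds. The call was lost when libraries were scaled by their size alone. The eEF1A genes are related copies, and reads may have been divided between this gene and eef1a1l1. This was not tested, since no sequence was used here, and the values of EEF1A1 remain uncertain.

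Of the remaining eEF1A and eEF2 genes, none passed. eef1a1l3 had 1, 1 and 0 counts in rapamycin fins, against 16, 3 and 6 counts in control fins, and was too low to be tested. eef1a2 had 0 counts in all rapamycin libraries, against 8, 0 and 4 counts in control fins, and the second EEF1A1 (ENSDARG00000039502) had 0 counts in all rapamycin libraries, against 20, 7 and 0 counts in control fins. A count of 0 allows up to 3 counts, so these rows hold little beyond the detection limit. EEF2, eef2a.1 and eef2a.2 had means of 4.05, 8.91 and 0.399 CPM in rapamycin fins and 3.13, 8.17 and 0.411 CPM in control fins, and their groups overlapped.

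Summed over eEF1A, eEF1B and eEF2, with eef1e1 counted in, the elongation factors came to 5935, 5942 and 6357 CPM in rapamycin fins, against 3488, 4797 and 3703 CPM in control fins, 1.52 times higher on average. The initiation factors and kinases came to 6815 ± 137 CPM in rapamycin and 6779 ± 673 CPM in control fins (SD, n = 3 each), a ratio of 1.01 with overlapping groups. The elongation sum rests on eef1a1l1 and eef2b for most of its counts and is a description of abundance. edgeR called 1 of the 11 tested genes higher and 2 lower, beside 1.97% and 3.27% of all tested genes. The lower genes were EEF1A1 (ENSDARG00000069951) and eef1e1, which is not an eEF1B subunit.

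The enzymes that act on the elongation factors overlapped between the groups. eef2k, the kinase that switches eEF2 off and is inhibited downstream of mTOR complex 1 in mammals, had 88.8, 88.6 and 105 CPM in rapamycin fins, against 94.4, 88.4 and 117 CPM in control fins (-0.09, standard error 0.18, edgeR adjusted p = 0.800). Of the lysine methyltransferases of eEF1A, eef1akmt1 had a log2 fold change of -0.05, EEF1AKMT4 of -0.53 and eef1akmt2 of -0.63 (edgeR adjusted p = 0.216 for the last). edgeR, DESeq2 and limma-voom called 0 of these 4 genes, and none had an unadjusted edgeR p under 0.05, beside 10.1% of all tested genes higher and 13.3% lower at that threshold.

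**Figure D3:**
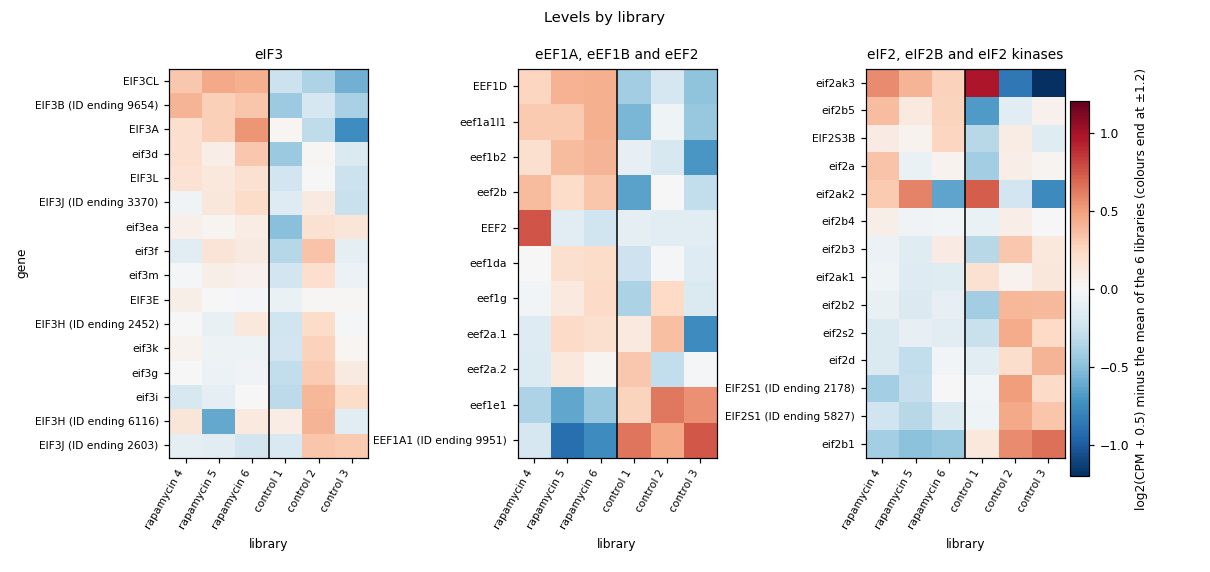
Level of each tested gene in each library as log2(CPM + 0.5) minus the mean of the 6 libraries, for eIF3, for eEF1A, eEF1B and eEF2 with eef1e1, and for eIF2, eIF2B and the eIF2 kinases. Rapamycin libraries stand left and control libraries right of the black line, red is above and blue below the mean, and colours end at ±1.2; genes run from the highest to the lowest log2 fold change, with EIF3CL, EEF1D and eif2ak3 on top and eif2b1 last in its panel.

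eIF2B, the exchange factor that recharges eIF2 with GTP and is blocked by phosphorylated eIF2, had 1 of 5 genes lower and 4 that did not pass. Of all tested genes, edgeR called 3.27% lower. eif2b1, its alpha subunit and part of the regulatory core that binds phosphorylated eIF2, had 36.1, 34.1 and 35.1 CPM in rapamycin fins, against 52.5, 71.7 and 76.2 CPM in control fins. The rapamycin libraries were almost equal and lay below every control, with means of 35.1 ± 1.03 CPM in rapamycin and 66.8 ± 12.6 CPM in control fins (SD, n = 3 each) and a log2 fold change of -0.93 (standard error 0.19, edgeR adjusted p = 0.0255). eif2b5, the catalytic epsilon subunit, stood the other way, with 70.4, 59.1 and 65.7 CPM in rapamycin fins, against 33.7, 50 and 56.5 CPM in control fins. Its groups did not overlap, but the gene did not pass, with a log2 fold change of 0.48 and a standard error of 0.21 (edgeR adjusted p = 0.214). eif2b2, eif2b3 and eif2b4 had log2 fold changes of -0.29, -0.10 and 0.00 and overlapped.

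eIF2 itself, which carries the initiator tRNA, had 4 genes and no call. The alpha subunit, the site of phosphorylation, was present as EIF2S1 under the IDs ENSDARG00000005827 and ENSDARG00000052178. The first had 60.2, 56.2 and 62.9 CPM in rapamycin fins, against 68.7, 97.8 and 89.6 CPM in control fins, with no overlap and a log2 fold change of -0.51 (edgeR adjusted p = 0.127). The second stood at -0.47 (edgeR adjusted p = 0.186) and overlapped. The beta subunit eif2s2 was at -0.30 and the gamma subunit EIF2S3B at 0.25, both with overlap. edgeR, DESeq2 and limma-voom called 0 of the 4 genes. Both EIF2S1 IDs were lower at an unadjusted edgeR p under 0.05, beside 13.3% of all tested genes.

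The kinases of eIF2 did not pass either. eif2ak1, the heme-regulated kinase, had 24.0, 22.4 and 22.5 CPM in rapamycin fins, against 28.4, 25.7 and 27.4 CPM in control fins, a small difference without overlap (-0.24, standard error 0.17, edgeR adjusted p = 0.420). eif2ak3, the kinase PERK of the endoplasmic reticulum, had 17.0, 15.2 and 13.8 CPM in rapamycin fins, against 22.7, 6.03 and 4.10 CPM in control fins. Control replicate 1 lay above all rapamycin libraries and the other controls lay far below them, and the log2 fold change of 0.49 (standard error 0.54) was 1.59 without control replicate 1. eif2ak2, the kinase PKR that double-stranded RNA activates, had means of 1.68 CPM in rapamycin and 1.49 CPM in control fins. Erythrocyte markers moved down in the same libraries as eif2ak1, which is known for its role in red blood cells, and their part in its value was not tested. eif2a and eif2d, which can bring tRNA to the ribosome outside the main route, had log2 fold changes of 0.20 and -0.36 and overlapped.

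The factors that act with the ribosomal subunits around the start codon had no call. All 8 genes of eIF1, eIF1A, eIF5, eIF5B and eIF6, with eif1ad, lay below 0, as did 9876 of all 19778 tested genes. The median log2 fold change of the 8 was -0.28, beside 0.00 over all tested genes. eif1axb, an eIF1A gene, had 72.3, 92.6 and 84.2 CPM in rapamycin fins, against 98.7, 154 and 123 CPM in control fins, with no overlap and a log2 fold change of -0.59 (standard error 0.20, edgeR adjusted p = 0.120). eif1axa stood at -0.44 and overlapped through control replicate 1, and eif1ad, which is named for its eIF1A domain, stood at -0.35. eif1b and eif1, which guard the choice of the start codon, stood at -0.25 and -0.15.

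eif6, which keeps the large ribosomal subunit from joining too early, had 113, 111 and 124 CPM in rapamycin fins, against 107, 178 and 148 CPM in control fins (-0.32, edgeR adjusted p = 0.387). eif5, the GTPase activator of eIF2, had 259, 250 and 262 CPM in rapamycin fins, against 237, 335 and 343 CPM in control fins (-0.25). In both genes control replicate 1 lay below all rapamycin libraries and the other controls above them. eif5b, which joins the subunits, was at -0.10 and changed sign without control replicate 2. edgeR, DESeq2 and limma-voom called 0 of the 8 genes. At an unadjusted edgeR p under 0.05, 1 of them was lower, eif1axb, beside 13.3% of all tested genes.

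The eIF4 factors, through which the cap is bound and unwound, had 0 of 19 tested genes called by edgeR, DESeq2 or limma-voom, and at an unadjusted edgeR p under 0.05 there were 2 higher and 2 lower. Beside the 10.1% and 13.3% of all tested genes, these counts stood near the background. eif4enif1, which carries eIF4E into the nucleus and represses bound mRNAs, had 37.9, 30.3 and 37.2 CPM in rapamycin fins, against 30.0, 13.1 and 15.2 CPM in control fins. It had the highest log2 fold change of all members, 0.85 with a standard error of 0.31, but control replicate 1 lay next to the lowest rapamycin library and the gene did not pass (edgeR adjusted p = 0.133). The cap-binding genes lay between -0.55 and -0.09. Of these, EIF4E had 47.7, 53.0 and 59.6 CPM in rapamycin fins, against 48.1, 60.9 and 61.3 CPM in control fins (-0.09), and eif4e2rs1, related to the repressor eif4e2, had 46.4, 44.9 and 48.1 CPM in rapamycin fins, against 46.9, 84.0 and 72.9 CPM in control fins (-0.55, edgeR adjusted p = 0.174). Both overlapped with the controls. eif4e1b had 0 counts in all 6 libraries.

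In the eIF4G scaffolds, control replicate 1 parted from the other controls. EIF4G1 had 142, 112 and 114 CPM in rapamycin fins, against 149, 88.1 and 72.6 CPM in control fins (0.25, edgeR adjusted p = 0.605). EIF4G3 (ENSDARG00000074331) had 18, 19.4 and 25.7 CPM in rapamycin fins, against 21.7, 9.01 and 5.48 CPM in control fins (0.80, edgeR adjusted p = 0.301). In both, and in EIF4G3 (ENSDARG00000077215, 0.30) and EIF4G2 (ENSDARG00000020377, 0.56), control replicates 2 and 3 lay below every rapamycin library and control replicate 1 did not. Without control replicate 1 these 4 genes were called higher, with log2 fold changes of 0.60, 1.53, 1.03 and 0.85. In that setting 15.5% of all tested genes were called higher. The 4 genes were grouped by where that library lay, so these calls give no separate support. The last eIF4G gene, EIF4G2 (ENSDARG00000057167), whose mammalian counterpart lacks the eIF4E-binding part, had 235, 236 and 240 CPM in rapamycin fins, against 265, 224 and 272 CPM in control fins (-0.10).

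None of the 4 eIF4A helicase genes was called by edgeR, DESeq2 or limma-voom. At an unadjusted edgeR p under 0.05, 1 was lower, eif4a2, beside 13.3% of all tested genes. eif4a1b had 298, 304 and 319 CPM in rapamycin fins, against 254, 285 and 245 CPM in control fins, apart but not called (0.23, edgeR adjusted p = 0.420). eif4a2 had 15.4, 11.1 and 15.1 CPM in rapamycin fins, against 16.5, 19.5 and 22.8 CPM in control fins, apart on the other side (-0.50, edgeR adjusted p = 0.208). eif4a1a was at 0.22, and eif4a3, which belongs to the exon junction complex and not to eIF4F, was at -0.44, and both overlapped. The helicase helpers EIF4B, a target of the S6 kinases, eif4ba and eif4h were at 0.02, -0.12 and -0.19. EIF4B changed sign with single libraries left out, within -0.04 to 0.09.

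eIF5A, the factor with the modified amino acid hypusine that helps ribosomes past difficult stretches, had 2 genes, neither of which passed edgeR. eif5a2 had 405, 393 and 372 CPM in rapamycin fins, against 513, 601 and 558 CPM in control fins. It lay below every control, by -0.52 on the log2 scale (standard error 0.16), and passed DESeq2 (adjusted p = 0.0215) but not edgeR (adjusted p = 0.0981). eif5a had 864, 790 and 830 CPM in rapamycin fins, against 668, 841 and 829 CPM in control fins, and overlapped (0.09, edgeR adjusted p = 0.794).

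Within a library, the ratio of counts between a pair of members does not depend on scaling. The pairs were chosen after the values were seen, so they are described with no test, and a ratio between genes of unlike length is read only for its difference between groups. The log2 ratio of eif2b1 to eif2b5 was -0.96, -0.79 and -0.90 in rapamycin fins, against 0.64, 0.52 and 0.43 in control fins, a difference of -1.42. That of eif5a2 to eif5a was -1.09, -1.01 and -1.16 in rapamycin fins, against -0.38, -0.49 and -0.57 in control fins, a difference of -0.61. In both pairs control replicate 1 lay farther from the rapamycin libraries than the other controls did. The log2 ratio of eef1e1 to eef1g was -4.65 ± 0.23 in rapamycin and -3.45 ± 0.17 in control fins, and that of EEF1D to eef1da was -1.44 ± 0.03 in rapamycin and -1.9 ± 0.09 in control fins (SD, n = 3 each). EIF3B to eif3g differed by 0.75 and EIF2S3B to eif2s2 by 0.54, again with no overlap, while EIF3A to eif3g and eif4a1b to eif4a3 overlapped between the groups.

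**Figure D4:**
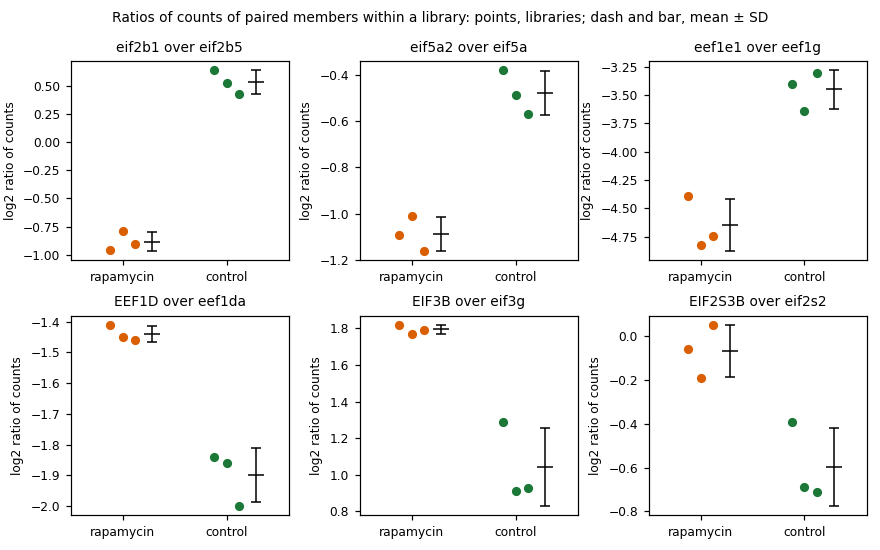
Log2 ratio of counts of 6 pairs of members within each library, each library as a point and the mean ± SD (n = 3) beside them, rapamycin left and control right; each vertical axis has its own range. No pair overlaps between the groups, and for eif2b1 over eif2b5 the rapamycin libraries lie at -0.96 to -0.79 and the controls at 0.43 to 0.64.

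The neighbours of these factors in the pathway were read from the same fit. Over 7 lists with 57 tested genes, 1 gene was higher, 1 was lower and 55 did not pass edgeR. Of all tested genes, edgeR called 1.97% higher and 3.27% lower, so these counts did not exceed the background. The higher gene was rps6kb1a, a gene of S6 kinase 1 that mTOR complex 1 activates, with 38.2, 42.0 and 33.8 CPM in rapamycin fins, against 24.8, 18.9 and 17.9 CPM in control fins (0.89, standard error 0.20, edgeR adjusted p = 0.0363). The lower gene was dnajc3a, a chaperone of the endoplasmic reticulum known as an inhibitor of PERK in mammals, with 36.1, 40.0 and 42.5 CPM in rapamycin fins, against 56.8, 72.2 and 96.6 CPM in control fins (-0.93, standard error 0.21, edgeR adjusted p = 0.0409). Neither gene overlapped between the groups. With single libraries left out, the adjusted p from edgeR reached 0.186 for rps6kb1a and 0.181 for dnajc3a. The other gene of S6 kinase 1, rps6kb1b, lay above every control at 0.20 but did not pass (edgeR adjusted p = 0.514).

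None of the 11 regulators of eIF4E and eIF4G was called by edgeR, DESeq2 or limma-voom. At an unadjusted edgeR p under 0.05, 2 were higher, eif4ebp3 and larp1, beside 10.1% of all tested genes. larp1 had the largest log2 fold change of the list, 1.19 (standard error 0.49, edgeR adjusted p = 0.182), and its groups overlapped. The smallest adjusted p of the 11 was that of eif4ebp3 (ENSDARG00000054916), an eIF4E-binding protein. It had 43.2, 43.0 and 48.4 CPM in rapamycin fins, against 34, 34.6 and 32.1 CPM in control fins (0.42, edgeR adjusted p = 0.158). A second ID of that symbol, EIF4EBP3 (ENSDARG00000041607), stood the other way at -0.20 and overlapped (edgeR adjusted p = 0.535). eif4ebp1 stood at -0.33 and eif4ebp2 at -0.01, both with overlap. Among the 8 poly(A)-binding and helper genes, pabpc1a, the poly(A)-binding protein that joins eIF4G, had 1313, 1234 and 1260 CPM in rapamycin fins, against 829, 905 and 894 CPM in control fins. It lay above every control, by 0.54 on the log2 scale (standard error 0.16). Its adjusted p was 0.0876 with edgeR and 0.0167 with DESeq2, and it was the single gene of that list to pass DESeq2. Of all genes it tested, DESeq2 called 4.55% higher. The related pabpc1b stood at 0.06 and overlapped (edgeR adjusted p = 0.854). edgeR called 0 of the 8. At an unadjusted edgeR p under 0.05, 2 were higher and 1 was lower, beside 10.1% and 13.3% of all tested genes.

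Of the 11 genes of the eIF2 phosphatase and stress response, edgeR called 1 lower, dnajc3a, and DESeq2 called 2 lower. Of all genes they tested, edgeR called 3.27% lower and DESeq2 7.17%. At an unadjusted edgeR p under 0.05, 3 were lower and 0 higher, beside 13.3% and 10.1% of all tested genes. In this list atf4a, the factor whose translation rises when eIF2 is phosphorylated, stood at 0.00 and atf4b at -0.37 (edgeR adjusted p = 0.318). ppp1r15b stood at -0.86 without overlap (edgeR adjusted p = 0.143). chac1, a target of ATF4, had 96.5, 165 and 87.2 CPM in rapamycin fins, against 179, 215 and 212 CPM in control fins (-0.80, edgeR adjusted p = 0.0960). It lay below the controls and passed DESeq2 (adjusted p = 0.0235). The change largest in size was upward, in gcn1 (1.04, edgeR adjusted p = 0.221), whose groups overlapped. ddit3, ppp1r15a, dnajc3b, trib3 and impact lay between 0.00 and 0.22 and overlapped. The median log2 fold change of the list was 0.00. The 9 hypusine and diphthamide enzymes, which modify eIF5A and eEF2, had no call by any of the 3 tools and none at an unadjusted edgeR p under 0.05, with dph6 at the smallest edgeR adjusted p (0.57, adjusted p = 0.228). The same held for the 5 termination and rescue genes, led by pelo (-0.24, edgeR adjusted p = 0.435).

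The 10 mitochondrial translation factors had a median log2 fold change of -0.41, beside 0.00 over all tested genes. No gene was called by the 3 tools, and 4 of the 10 were lower at an unadjusted edgeR p under 0.05, beside 13.3% of all tested genes. mtif2, the mitochondrial initiation factor that brings in the first tRNA, had 6.65, 6.89 and 7.21 CPM in rapamycin fins, against 8.61, 15.5 and 11.5 CPM in control fins (-0.78, edgeR adjusted p = 0.114). The groups were apart, and this was the smallest adjusted p of the list.

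The number of members called depended on single libraries and on the tool. DESeq2 called 7 higher and 4 lower of 76 tested (9.21% and 5.26%, beside 4.55% and 7.17% of all genes it tested). The 7 were EIF3A, EIF3B, EIF3CL, EEF1D, eef1a1l1, eef1b2 and eef2b, and the 4 were EEF1A1, eef1e1, eif2b1 and eif5a2. limma-voom called 4 higher, adding eef1a1l1 to the edgeR calls, and the same 3 lower (5.41% and 4.05%, beside 2.87% and 3.43% of all tested genes). The 6 edgeR calls kept their sign in every setting reported here. Their groups did not overlap, so a change of sign was hardly possible and the kept sign gives no separate support. Their log2 fold changes with single libraries left out lay between 0.62 and 0.87 for the higher genes. For the lower genes they lay between -1.69 and -0.82.

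**Figure D5:**
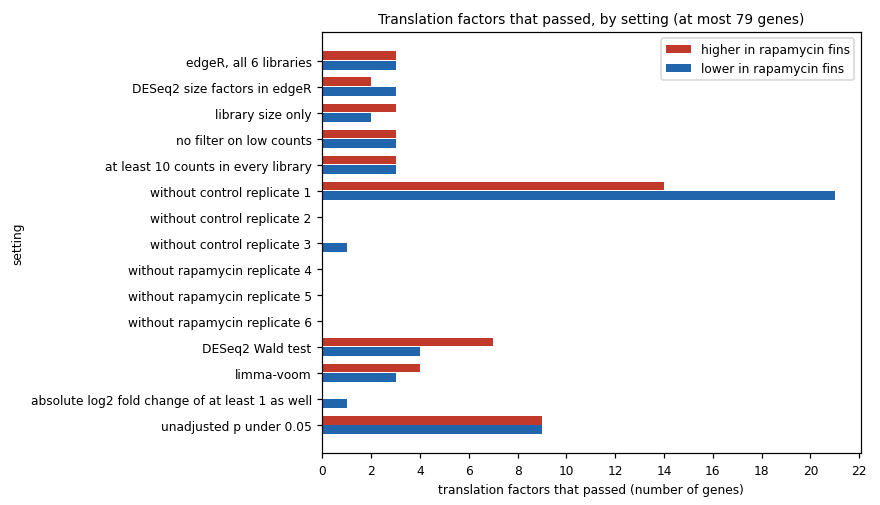
Number of translation factors called higher (red) and lower (blue) in rapamycin fins under each setting on the vertical axis. Without control replicate 1 the counts were 14 and 21, with DESeq2 they were 7 and 4, and without each of the other libraries they were 0 and at most 1.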

How the data were processed

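The table deposited by the authors holds whole-number counts per gene for 32057 Ensembl zebrafish IDs in 6 libraries, with no normalization. The libraries were made from Trizol RNA with SMARTScribe reverse transcriptase and sequenced in paired ends. Which aligner, counter and annotation release were used is not given in the sources used here, and the submitters' processing notes name the mouse build mm10, so no coordinates are printed. The authors' own threshold also asks for a log2 fold change of 1 or more in size. Symbols came from a table of gene names, which covers 28988 IDs. A name in capitals that stands for 1 ID and is listed in RefSeq is printed in lower case. For 7 names with more than 1 ID, the ID is given.

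The fit used edgeR 4.0.16 under R 4.3.3 (filterByExpr, TMM, robust quasi-likelihood test, Benjamini-Hochberg adjustment over 19778 genes), and adjusted p-values are edgeR's where no tool is named. Standard errors are the fold change divided by the square root of F. Alternatives were DESeq2 1.42.0, limma-voom (limma 3.58.1), other scalings, filters and call rules, and leaving out each library. With 3 libraries against 3, an exact permutation test of a single value cannot go below p = 0.1, so none is given. The labels name no batch, and the libraries are called biological replicates, each a pool of 50 fins. Reads have no molecular identifiers, so the limit of 3 counts covers counting error only.

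The members, gene lists and tests were chosen with earlier results of these data known. Named members are those called, those with the highest and lowest log2 fold change in each complex, and others to account for them; in the pathway lists, called genes and the smallest adjusted p. The member with the highest level per length could not be named, since no coding length was used here.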

Additional observations from a re-analysis of the deposited data

How the results depend on the processing

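With DESeq2 7 members were called higher, and at an unadjusted p under 0.05 there were 9 higher and 9 lower (12.2% each, beside 10.1% and 13.3% of all tested genes). With a fold change of 1 or more in size on the log2 scale asked for as well, there were 0 higher and 1 lower, EEF1A1 (ENSDARG00000069951), beside 1.49% and 2.61% of all tested genes. Leaving out single libraries gave 0 to 14 members called higher and 0 to 21 lower; the highest counts came without control replicate 1. With DESeq2's size factors in edgeR EIF3B lost its call (2 higher, 3 lower), and with library size alone EEF1A1 did (3 higher, 2 lower); other filters on low counts gave 3 and 3. Of 408 values of 34 named members under the alternatives, 349 kept their direction and side of the threshold, 31 lost a call, 18 gained one and 10 changed sign. Only the 6 called members could lose a call, and each of them was called in just 6 to 8 of the 12 alternatives. The changes of sign were in 6 genes that had not passed: with single libraries left out EIF4B lay between -0.04 and 0.09, eif5b between -0.22 and 0.04, eif5a between -0.02 and 0.15, eef2k between -0.17 and 0.04, eef1akmt1 between -0.17 and 0.05 and eef2a.2 between -0.33 and 0.37, and eef2a.2 was at 0.01 with limma-voom. The cause was not tested. Summed levels of 19 groups of factors moved by less than the spread between replicates under both other scalings. Overlap between rapamycin and control sums did depend on scaling in some. With library size alone, the sums for eIF1 with eIF1A, for eIF4E and for the eEF1A methyltransferases lay below every control. So did that for eIF5, eIF5B and eIF6. These sums overlapped after TMM scaling. The eIF4A sum lay above every control after TMM scaling and overlapped with library size alone. A correction for gene span was fitted to the genes with a known span, but its values are not used here. The span was known for 53 of 79 members (67.1%), which makes it void for them as a set. No paired analysis was possible because the 2 groups share no replicate numbers. Depth limits members with few counts, such as eef2a.2, whose standard error was 0.77.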
